A study of Homo sapiens with 36 samples.

Results

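A set of 10 genes of the response to low oxygen and of glycolysis was followed on 36 bead arrays: ADM, VEGFA, SLC2A1, P4HA1, HK2, LDHA, ALDOA, ALDOC, PDK1 and BNIP3. They were chosen by name, as every probe whose target in the bead table is 1 of these 10 genes, out of 34694 targets on 47323 probes. The 10 genes have 19 probes. Detection on at least 6 arrays, at the deposited detection p-value under 0.05, kept 15 probes of 9 genes. The other 4 probes were detected on 0 arrays, and the only PDK1 probe is among them, so PDK1 could not be tested.

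The arrays hold total RNA from DLD-1, a human colorectal adenocarcinoma epithelial line, and Jurkat, a human leukaemic T-cell line. Each line gave 12 control arrays (0% CSE) and 6 arrays of cells exposed to 20% cigarette smoke extract (CSE), an aqueous extract of smoke added to the culture. The exposure lasted 2 to 6 h, and the time of each array is not given. The groups have no genetic change or other agent in the labels, each line stands for a single tumour, and nothing says that replicate arrays came from separate cultures, so p-values measure the spread between these arrays, which may be technical.

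When oxygen is low, prolyl hydroxylases stop marking the hypoxia-inducible factor (HIF) alpha subunits for destruction through VHL, and HIF then binds a short core motif near its target genes. Among the classical HIF targets are secreted signals (ADM, VEGFA), the glucose transporter SLC2A1, glycolytic enzymes (HK2, ALDOA, ALDOC, LDHA), the pyruvate dehydrogenase inhibitor PDK1, the collagen hydroxylase subunit P4HA1 and the mitophagy receptor BNIP3. Many of these genes also answer to other stress signals and to growth factors. The study's title concerns HSPA6, an inducible HSP70 chaperone, as a gene induced by smoke.

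The 250 bases before the annotated start are shown for 4 members because they set the genes that rose with CSE beside a glycolytic gene that did not pass the test. The sequences are RefSeq's, on GRCh38.p14, read 5′ to 3′ on the strand of the gene, and capitals mark the HIF core motif, ACGTG or GCGTG, on either strand. Windows lie at chr11:10304823-10305072 (plus strand) for ADM, chr10:73096867-73097116 (minus strand) for P4HA1, chr1:42958869-42959118 (minus strand) for SLC2A1 and chr11:18394313-18394562 (plus strand) for LDHA.
ADM: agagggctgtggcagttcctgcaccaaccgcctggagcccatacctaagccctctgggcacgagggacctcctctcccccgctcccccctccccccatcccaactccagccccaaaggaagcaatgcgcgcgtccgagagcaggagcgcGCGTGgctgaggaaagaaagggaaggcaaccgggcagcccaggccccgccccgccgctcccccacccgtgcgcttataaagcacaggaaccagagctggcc
P4HA1: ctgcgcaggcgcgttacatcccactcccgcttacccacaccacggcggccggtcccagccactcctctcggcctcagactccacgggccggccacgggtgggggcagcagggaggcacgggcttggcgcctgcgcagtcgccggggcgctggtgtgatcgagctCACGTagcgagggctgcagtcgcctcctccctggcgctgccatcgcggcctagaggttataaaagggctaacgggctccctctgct
SLC2A1: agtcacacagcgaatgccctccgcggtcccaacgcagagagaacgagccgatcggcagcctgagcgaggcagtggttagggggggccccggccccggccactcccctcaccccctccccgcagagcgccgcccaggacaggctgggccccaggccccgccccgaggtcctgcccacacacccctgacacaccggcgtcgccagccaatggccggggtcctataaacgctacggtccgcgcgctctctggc
LDHA: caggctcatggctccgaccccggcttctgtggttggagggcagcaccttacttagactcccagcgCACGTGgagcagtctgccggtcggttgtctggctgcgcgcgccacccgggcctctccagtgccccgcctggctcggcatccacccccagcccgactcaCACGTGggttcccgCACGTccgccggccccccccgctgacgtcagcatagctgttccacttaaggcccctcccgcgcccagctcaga
The ADM window holds 1 match, GCGTG, and the P4HA1 window holds 1, ACGTG on the opposite strand. The SLC2A1 window holds 0, and this LDHA window holds 5, 4 of them in 2 copies of CACGTG, where the matches of the 2 strands overlap. The RefSeq table gave 14 promoters for 9 members and none for VEGFA. Of these 14 windows 12 (85.7%) held a match, against 43.2% of all 35116 windows of the same length in the table. ACGTG alone occurred in 18.5% of all windows. A match is a string of letters and no evidence of binding, and the members are known HIF targets, so this share is a description.

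Arrays were comparable in quality. Between 16012 and 19131 probes were detected per array, the median bead intensity lay between 97.2 and 121.3, and the labels give RNA quality scores (RQI) of 9.3 to 9.6. Of 11 intestinal epithelial markers, 9 were measured and all 9 were higher in DLD-1. Of 12 T-cell markers, 11 were measured and all 11 were higher in Jurkat, where 10 were detected on every array, while none was detected on every DLD-1 array. With CSE 2 of these 11 were called higher and 1 lower in Jurkat, and none of the 11 or of the 9 epithelial markers was called in DLD-1. Of 6 fibroblast markers 1 was measured, and of 7 monocyte or B-cell markers 4, of which CSE called none in DLD-1 and 1 higher and 1 lower in Jurkat. HSPA6, as a check of exposure on the same arrays, reached at most 5.67 on any DLD-1 control array and at least 9.25 on every CSE array of that line. In Jurkat the highest control array had 6.75 and the lowest CSE array 7.40. The labels of 1 Jurkat control array name the other line in their cell line field. On all 12 Jurkat control arrays, this one included, the mean T-cell marker level was at least 8.63, against at most 4.73 on DLD-1 control arrays. All 36 arrays lie on 3 BeadChips of 12, and the DLD-1 CSE arrays fall 2, 3 and 1 on BeadChips 1, 2 and 3 while the Jurkat CSE arrays fall 3, 1 and 2. Values below are log2 bead intensities after background correction and quantile normalization, and levels are compared only within a probe.

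CSE raised 3 of the 9 measured members in DLD-1: ADM by 2.90-fold, SLC2A1 by 1.56-fold and P4HA1 by 1.41-fold. None of the 9 fell. The measured members' median log2 change was 0.22, against -0.0083 over all 16090 genes tested. A gene was called at a Benjamini-Hochberg adjusted p under 0.05 over all genes in limma's moderated test, 1 model over the 4 groups with the brightest kept probe for each gene. That rule called 4.31% of all genes in DLD-1, with 1.85% of genes higher and 2.46% lower. The set is small and was named with earlier results of these data known, so its count is a description. Because RNA was taken in bulk, fewer cells expressing a gene and less of its RNA per cell cannot be told apart here or below.

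ADM encodes adrenomedullin, a secreted vasodilator peptide. In DLD-1 its level was 8.80 at the lowest, 9.43 at the median and 9.77 at the highest of the 12 control arrays, and 10.23, 10.98 and 11.69 on the 6 CSE arrays. Every CSE array lay above every control array. The log2 change was 1.53 ± 0.38 (SE, n = 6 against 12; limma adjusted p = 0.013). The spread was also wider with CSE, at SD 0.53 against 0.35. With the BeadChip as a block the change was 1.43 (limma adjusted p = 0.026), and within BeadChips 1, 2 and 3 alone it was 1.51, 1.55 and 1.04.

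SLC2A1 encodes GLUT1, the basal glucose transporter of most cells. Its DLD-1 control arrays lay at 9.64, 10.76 and 11.05 (lowest, median, highest) and its CSE arrays at 10.94, 11.26 and 11.44. All 6 CSE arrays were above the control mean and 4 were above every control array, although the 2 lowest control arrays were set apart from the other 10. The log2 change of 0.64 ± 0.19 (SE; limma adjusted p = 0.047) was close to the threshold. Blocking on the BeadChip gave 0.57 (limma adjusted p = 0.080), which misses the threshold, and the call was lost when any 1 of 20 of the 36 arrays was left out. It was also lost in 11 of 17 other settings of processing and test, the block among them.

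P4HA1 encodes the catalytic alpha subunit of the enzyme that hydroxylates prolines in collagen. Its DLD-1 control arrays lay at 7.57, 8.10 and 8.30 and its CSE arrays at 8.27, 8.53 and 8.70 (lowest, median, highest). The groups touched only at their edges, with 5 of 6 CSE arrays above every control array. The log2 change was 0.49 ± 0.12 (SE; limma adjusted p = 0.011), with 0.51, 0.62 and 0.23 within BeadChips 1, 2 and 3. CSE replicate 3 had the highest ADM (11.69) and HSPA6 (13.64) of the 6, and 0 of 9 members passed without it. ADM then gave 1.38 (limma adjusted p = 0.065), P4HA1 0.45 (limma adjusted p = 0.054) and SLC2A1 0.64 (limma adjusted p = 0.11). The SLC2A1 change thus stayed the same, and its value on that array was 11.21. Over all genes the calls fell from 693 to 295 without this array.

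**Figure D1:**
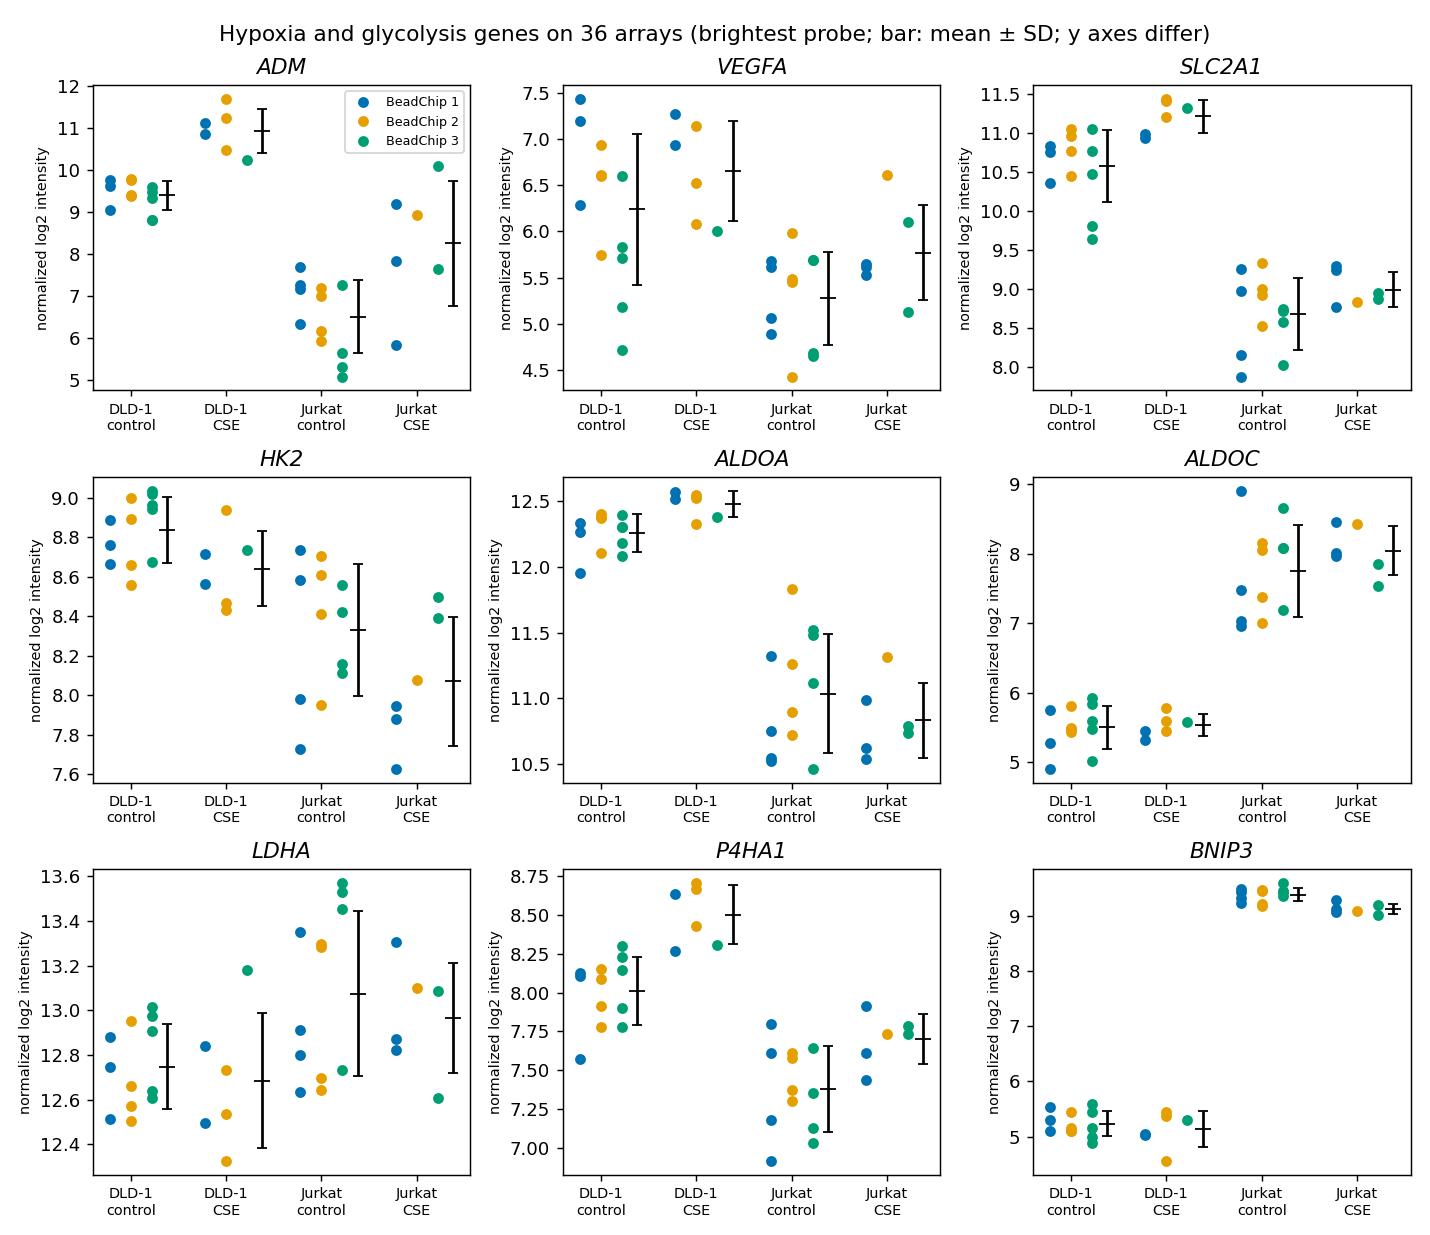
Normalized log2 intensity (y axis) of the brightest probe of 9 genes on each of 36 arrays, by group (x axis), with points coloured by BeadChip and a bar for the mean ± SD. In DLD-1 the CSE arrays of ADM (10.23 to 11.69) lie above all control arrays (8.80 to 9.77), and BNIP3 lies near 5 in DLD-1 and between 9.02 and 9.59 in Jurkat.

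The other signal, VEGFA, the main growth factor of blood vessels, was dim. It was detected on 11 of 12 control and 6 of 6 CSE arrays of DLD-1. Its control levels of 4.72, 6.44 and 7.43 spanned its CSE levels of 6.00, 6.73 and 7.27 (lowest, median, highest). The log2 difference of 0.42 ± 0.29 (SE; limma adjusted p = 0.54) did not pass.

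No glycolytic enzyme passed the test in DLD-1. HK2, which traps glucose in the cell by phosphorylation, differed by -0.20 ± 0.14 on the brightest probe (limma adjusted p = 0.52) and by -0.49 ± 0.16 on the other (adjusted p = 0.082 over all kept probes in limma). All 6 CSE arrays lay below the control mean on that other probe, and 1 of 6 lay above it on the brightest. ALDOA, the muscle and general aldolase that splits fructose bisphosphate, had control arrays from 11.95 to 12.40 and CSE arrays from 12.33 to 12.58, with 4 of 6 CSE arrays above every control array. Its log2 difference was only 0.22 ± 0.15 (SE; limma adjusted p = 0.52). ALDOC, the brain aldolase, was dim in DLD-1, with a control mean of 5.50 and detection on 11 of 12 control arrays, and differed by 0.03. LDHA, which turns pyruvate into lactate, differed by -0.06. BNIP3 was near background in DLD-1, detected on 10 of 12 control and 3 of 6 CSE arrays, and differed by -0.10.

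In Jurkat, CSE raised 1 of the 9 measured members, ADM, by 3.36-fold, and none fell; scaling arrays by their median in place of quantiles added P4HA1. The same test called 19.9% of all genes in Jurkat, 8.31% higher and 11.6% lower, so 1 call among 9 genes is no more than the background share. The measured members' median log2 change was 0.30, against 0.03 over all genes, with 5 of the 9 members positive.

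ADM in Jurkat lay at 5.08, 6.66 and 7.68 on control arrays and at 5.83, 8.38 and 10.09 on CSE arrays (lowest, median, highest). The groups overlapped: 4 of 6 CSE arrays were above every control array, and CSE replicate 3 at 5.83 was below the control mean of 6.50. The log2 change was 1.75 ± 0.38 (SE; limma adjusted p = 0.00081), and the SD was 1.49 with CSE against 0.87 without. In the authors' normalized values the change was 1.10, or 2.14-fold (limma adjusted p = 0.0013). Within BeadChips 1, 2 and 3 the change was 0.51, 2.36 and 3.04. On BeadChip 3, control arrays at 5.08 and 5.32 lay near background, which limits that change. Control ADM also differed between 2 sets of arrays, described below, that were spread unevenly over the BeadChips. The set at 6.99 to 7.68 held 3, 2 and 1 arrays of BeadChips 1, 2 and 3, and the set at 5.08 to 6.33 held 1, 2 and 3. The part of these sets in the changes by BeadChip was not tested. An exact rank test per gene, which called 14.8% of all genes in Jurkat, gave ADM an adjusted p of 0.073.

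P4HA1 came close to the threshold in Jurkat. Control arrays lay at 6.92, 7.36 and 7.80 and CSE arrays at 7.44, 7.73 and 7.91 (lowest, median, highest), with 6 of 6 CSE arrays above the control mean and 1 above every control array. The log2 difference was 0.32 ± 0.12 (SE; limma adjusted p = 0.052), and with the BeadChip as a block it was 0.34 (limma adjusted p = 0.045).

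BNIP3, which links damaged mitochondria to the autophagy machinery, was bright in Jurkat. Control arrays lay at 9.19, 9.43 and 9.59 and CSE arrays at 9.02, 9.10 and 9.28. No CSE array reached the control mean and 4 of 6 lay below every control array, yet the log2 difference of -0.26 ± 0.11 (SE; limma adjusted p = 0.096) did not pass in the model that shares 1 spread across the lines. It passed in 5 of 17 other settings, among them an exact rank test (adjusted p = 0.015) and the authors' normalized values (-0.22, limma adjusted p = 0.00060). Within BeadChips 1, 2 and 3 the difference was -0.21, -0.25 and -0.36.

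The remaining members overlapped between Jurkat groups and did not pass. SLC2A1 differed by 0.32 (limma adjusted p = 0.27), with 6 of 6 CSE arrays above the control mean, and VEGFA by 0.50 (adjusted p = 0.26), with 5 of 6. VEGFA was detected on 7 of 12 control and 6 of 6 CSE arrays. HK2 differed by -0.26, LDHA by -0.11 and ALDOC by 0.30. With median scaling LDHA changed sign, to 0.13 in Jurkat and 0.11 in DLD-1, and did not pass. The probes of ALDOA disagreed: the brightest gave -0.20 and another bright probe 0.30, neither past the threshold. Over all 15 kept probes, CSE called 2 in DLD-1 (ADM and P4HA1; SLC2A1 had an adjusted p of 0.051) and 1 in Jurkat (ADM), where the same limma test called 3.71% and 18.1% of the 22612 kept probes.

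**Figure D2:**
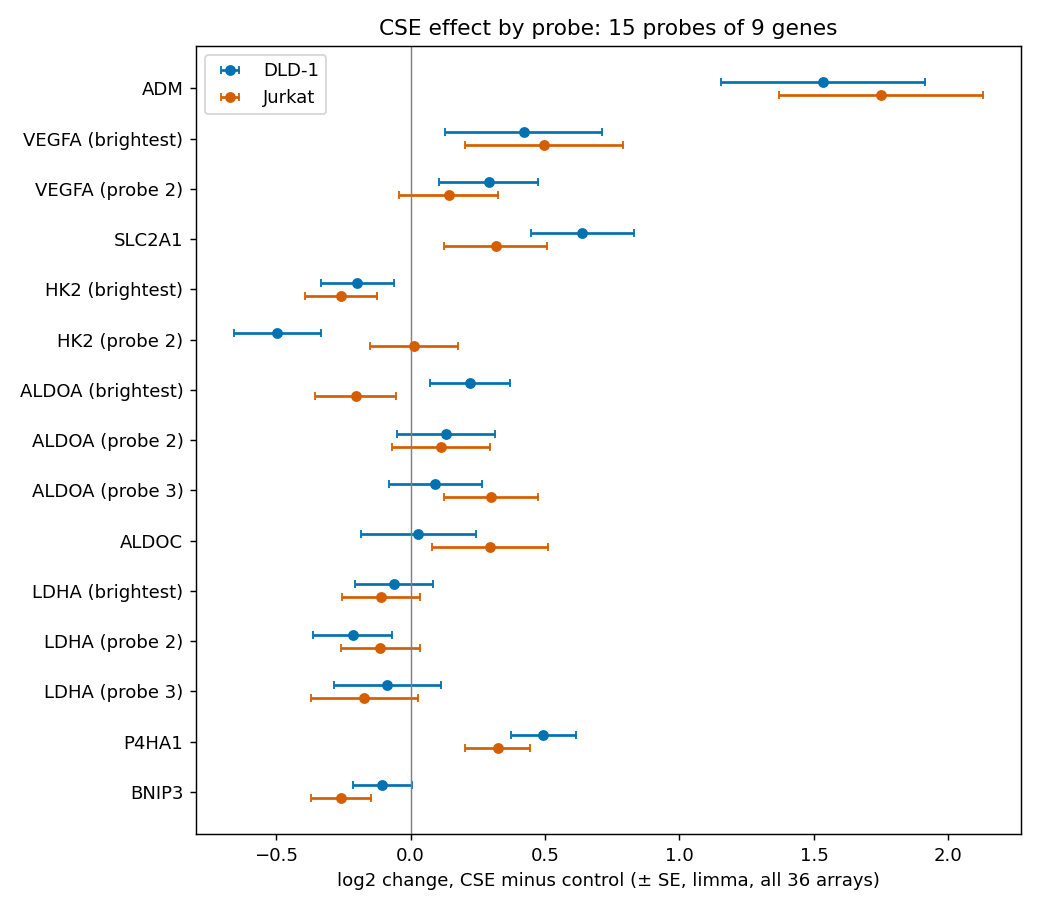
Log2 change from control to CSE (x axis, ± SE from limma) for each of the 15 kept probes (y axis), in DLD-1 (blue) and Jurkat (orange). ADM stands to the right in both lines at 1.53 and 1.75, and the probes of ALDOA and of HK2 differ among themselves.

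The response of the 9 members was not shown to differ between the lines. For the difference of the 2 effects limma called 0 of 9 members, with 0 at an unadjusted p under 0.05, where it called 6.48% of all genes. For ADM the effect in DLD-1 minus that in Jurkat was -0.21 ± 0.54 (SE; limma adjusted p = 0.87), an error wide enough to hold sizeable differences in either direction. For P4HA1 it was 0.17 ± 0.17, for SLC2A1 0.32 ± 0.27 and for BNIP3 0.15 ± 0.16. For ALDOA the brightest probe gave 0.43 ± 0.21 (limma adjusted p = 0.24) and the other bright probe -0.21 ± 0.25, and the other HK2 probe gave -0.51 ± 0.23 (limma adjusted p = 0.20 over all kept probes). HMOX1, the haem oxygenase that many stress signals induce, did differ between the lines on these arrays, by 3.97 ± 0.41 (limma adjusted p = 4.5e-08). It changed by 4.37 in DLD-1 and by 0.40 (limma adjusted p = 0.38) in Jurkat. In Jurkat, however, HMOX1 was detected on only 3 of 12 control and 3 of 6 CSE arrays, so its change there is measured near the floor.

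ADM varied between CSE arrays along with HSPA6. In DLD-1, CSE replicates 1 to 6 had ADM at 10.85, 11.10, 11.69, 10.46, 11.22 and 10.23 and HSPA6 at 11.83, 11.89, 13.64, 9.25, 12.71 and 9.45. In Jurkat, ADM was 9.18, 7.83, 5.83, 8.93, 10.09 and 7.63 and HSPA6 was 10.79, 9.32, 7.40, 10.90, 12.99 and 9.88. The array with the highest HSPA6 had the highest ADM in both lines, and the Jurkat array with the lowest HSPA6 had the lowest ADM.

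In DLD-1 the relation had Pearson's r = 0.96 (n = 6, exact permutation p = 0.0042) and Spearman's rho = 0.94 (exact permutation p = 0.017). In Jurkat r was 0.97 (n = 6, exact permutation p = 0.0083) and rho 0.89 (exact permutation p = 0.033). After adjustment over the 18 relations of 9 members in 2 lines, both Pearson values had an exact permutation p of 0.075 and did not pass. HSPA6 in DLD-1 left a gap between 2 arrays, at 9.25 and 9.45, and the other 4, at 11.83 or more, so the DLD-1 values also describe those 2 sets. Without the 2 arrays farthest from the median HSPA6, in DLD-1 those 2 low arrays, r was 0.95 in DLD-1 and 0.90 in Jurkat, and with each BeadChip centred it was 0.97 and 0.99. HK2 ran the other way in DLD-1, at r = -0.90 and rho = -1.0 (n = 6, exact permutation p = 0.013 and 0.0028, adjusted 0.075 and 0.050). No order of 6 arrays gives a smaller exact p for rho, so over 18 relations a single rho could not pass. In Jurkat the r of HK2 was 0.49 (exact permutation p = 0.33). For the other 14 relations the adjusted exact permutation p of r was 0.18 or more. Exposure time per array is not given, so its part in this spread was not tested.

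**Figure D3:**
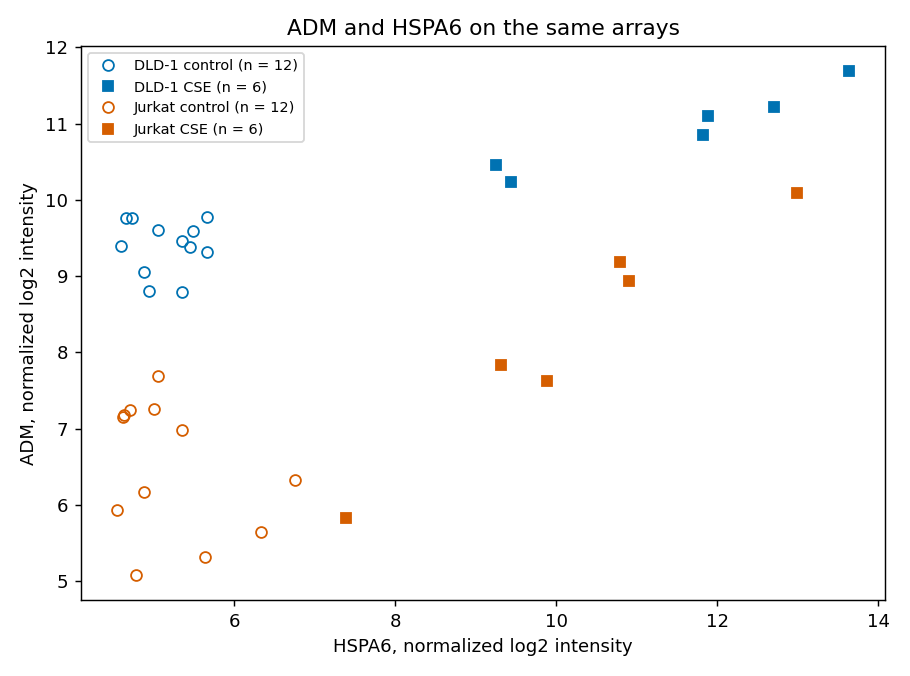
ADM (y axis) against HSPA6 (x axis), both as normalized log2 intensity, on 36 arrays, with open symbols for control and filled symbols for CSE arrays of DLD-1 (blue) and Jurkat (orange). The CSE arrays of each line climb together, from ADM 10.23 to 11.69 in DLD-1 and from 5.83 to 10.09 in Jurkat.

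Untreated DLD-1 and Jurkat cells differed in all 9 measured members. In DLD-1, 6 members were higher and 3 were lower. The test called 62.9% of all genes between the lines (29.4% higher and 33.5% lower in DLD-1), so a call here is common. The members' median was 0.63 against -0.04 over all genes. Each line is a single tumour, so line and tissue of origin cannot be told apart.

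ADM was 7.42-fold higher in DLD-1 (log2 difference 2.89 ± 0.31 SE, limma adjusted p = 1.2e-10), with all 12 DLD-1 control arrays (8.80 to 9.77) above all Jurkat ones (5.08 to 7.68). In the authors' normalized values the ADM fold was 3.67 (limma adjusted p = 2.9e-10). SLC2A1 was 3.74-fold higher (1.90 ± 0.16 SE, limma adjusted p = 6.8e-14), again without overlap, at 9.64 to 11.05 against 7.87 to 9.33. ALDOA was 2.33-fold higher, at 11.95 to 12.40 against 10.47 to 11.83, with no overlap on the brightest probe. The next bright ALDOA probe gave 1.61-fold with overlapping groups. VEGFA (1.95-fold, and 1.28-fold in the authors' normalized values), P4HA1 (1.55-fold) and HK2 (1.42-fold) were higher in DLD-1 with overlapping groups.

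BNIP3 was 17.8-fold lower in DLD-1 (-4.15 ± 0.09 SE, limma adjusted p = 1.45e-33), at 4.88 to 5.59 on 12 DLD-1 control arrays against 9.19 to 9.59 on 12 Jurkat ones. Since 2 of the 12 DLD-1 control arrays did not detect it, its DLD-1 level is near the floor of the assay, and in the authors' normalized values the fold was 5.08. ALDOC was 4.75-fold lower in DLD-1 (-2.25 ± 0.18 SE, limma adjusted p = 1.6e-14), at 4.90 to 5.92 against 6.96 to 8.90. ALDOC was detected on 11 of 12 DLD-1 control arrays, so its level there is also near the floor. In the authors' normalized values the ALDOC fold was 2.07. ALDOA and ALDOC therefore ran in opposite directions between the lines. LDHA was lower in DLD-1 by 0.33 on the log2 scale (-0.33 ± 0.12 SE, limma adjusted p = 0.015), with overlapping groups, and that call was lost in 5 of 17 other settings. Of its further kept probes, a bright one gave -0.35 and a dim one 0.20 ± 0.16 (SE; limma adjusted p = 0.29 over all kept probes).

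Levels of the members also varied between untreated arrays of the same line. In Jurkat control cells, the brightest LDHA probe lay at 12.63 to 12.91 on 6 arrays and at 13.28 to 13.57 on the other 6. Another bright LDHA probe lay at 12.43 to 13.03 and at 13.17 to 13.49 on these sets, without a wide gap between them. On the same sets of arrays, defined here from LDHA and not by the study, ADM lay at 6.99 to 7.68 and at 5.08 to 6.33. ALDOA lay at 10.47 to 10.89 and at 11.12 to 11.83, and ALDOC at 6.96 to 7.47 and at 8.05 to 8.90. The 6 arrays with less LDHA thus had less ALDOA and ALDOC and more ADM, and ADM, ALDOA and ALDOC did not overlap between the sets, which were cut at the gap in LDHA itself. The other 5 measured members overlapped, P4HA1 for example at 7.18 to 7.80 and at 6.92 to 7.37. Of all 16090 genes, 9.78% did not overlap between these sets.

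Since LDHA, ADM, ALDOA and ALDOC on their brightest probes did not overlap between these sets, no pooled correlation is given for them. Inside the sets, ADM against LDHA had r = 0.92 (n = 6, exact permutation p = 0.019) where LDHA was lower and r = -0.87 (n = 6, exact permutation p = 0.044) where it was higher. P4HA1 against ALDOC had the same sign in both, at r = -0.80 (exact permutation p = 0.019) on the lower set and -0.89 (exact permutation p = 0.025) on the higher set. None of 14 such relations passed adjustment (lowest adjusted exact permutation p 0.12). BeadChips 1, 2 and 3 held 3, 2 and 1 arrays of the lower set and 1, 2 and 3 of the higher set. FOS, an immediate early gene that was singled out after its values were seen, lay at 6.58 to 9.59 on the lower set and at 4.42 to 8.74 on the higher set, and its part in the pattern was not tested. SLC2A1 and HK2 correlated across the 12 Jurkat control arrays, at r = 0.78 and rho = 0.76 (permutation p = 0.0030 and 0.0057, adjusted over 72 relations 0.018 and 0.0498). Their r was 0.78 without the 2 arrays farthest in SLC2A1 and 0.79 with BeadChips centred. Medians of both genes also differed between the lower and the higher set, at 8.34 and 8.86 for SLC2A1 and at 8.05 and 8.49 for HK2.

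In DLD-1 control cells ADM, VEGFA and SLC2A1 varied together. ADM against VEGFA had r = 0.80 and rho = 0.85 (n = 12, permutation p = 0.0018 and 0.00083, adjusted 0.015 and 0.016). ADM against SLC2A1 had r = 0.82 and rho = 0.59 (permutation p = 0.0018 and 0.046, adjusted 0.015 and 0.15), and VEGFA against SLC2A1 had r = 0.80 and rho = 0.60 (permutation p = 0.0017 and 0.044, adjusted 0.015 and 0.14). Without the 2 arrays farthest from the median, these fell to 0.53, 0.43 and 0.51, so the strength of all 3 rests on the 2 lowest arrays. With BeadChips centred they were 0.83, 0.76 and 0.87. LDHA against ALDOC had r = 0.79 and rho = 0.76 (permutation p = 0.0018 and 0.0055, adjusted 0.015 and 0.0498), with r of 0.69 without the 2 farthest and 0.87 with BeadChips centred. ALDOC lay near the floor on these control arrays, at 4.90 to 5.92, and was detected on 11 of the 12. ADM against LDHA had r = -0.21 there (permutation p = 0.50).

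**Figure D4:**
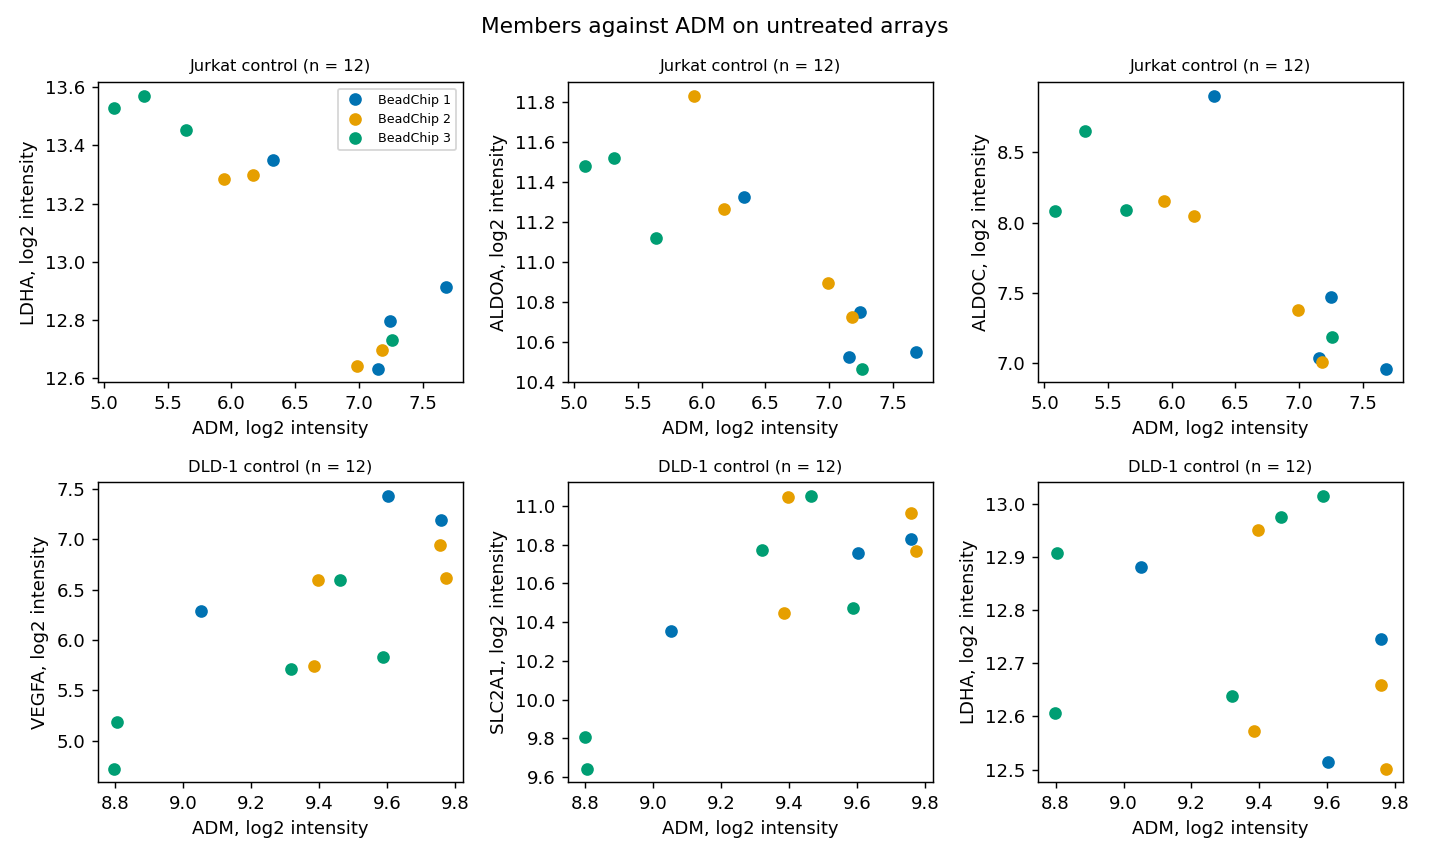
Normalized log2 intensity of other members (y axes) against that of ADM (x axes) on the 12 control arrays of Jurkat (top row) and of DLD-1 (bottom row), coloured by BeadChip. In Jurkat the brightest LDHA probe lies at 12.63 to 12.91 on 6 arrays and at 13.28 to 13.57 on the other 6. In DLD-1 the 2 arrays lowest in ADM are also lowest in VEGFA and SLC2A1.

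For each member called with CSE, the genes most like it were taken as those with the highest Pearson's r over 36 arrays after each group's mean was removed. They were the best of 16090 genes and carry no test. For ADM they were TENT5A (r = 0.81) and PSMD12 (0.81), for P4HA1 KRCC1 (0.83) and LOC731950 (0.80), and for SLC2A1 NOB1 (0.77) and GMEB2 (0.76). Group means of these genes did not all follow their partner: with CSE in Jurkat TENT5A, a poly(A) polymerase family gene, rose by 1.71 ± 0.29 (SE; limma adjusted p = 2.6e-05), while PSMD12, a proteasome lid subunit, fell by 0.67 on the log2 scale (limma adjusted p = 1.2e-05). In DLD-1, where ADM rose, TENT5A differed by 0.35 and PSMD12 by -0.0079 (limma adjusted p = 0.63 and 0.99). Groups were not scaled to equal spread, so the Jurkat groups, where ADM varied more, weigh more in its r. The SD of ADM was 1.49 with CSE and 0.87 without in Jurkat, against 0.53 and 0.35 in DLD-1.

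Wider lists placed the members among their pathway. Of 17 genes of oxygen sensing, 16 were measured. In DLD-1 none passed (5 at an unadjusted p under 0.05 in limma; 1 with the BeadChip as a block and 3 in the authors' normalized values), and the smallest p-values belonged to HIF1A, the HIF alpha subunit (0.40 ± 0.12 SE, limma adjusted p = 0.061), and VHL (-0.40 ± 0.13 SE, limma adjusted p = 0.062). Further probes in DLD-1 gave 0.56 and 0.38 for HIF1A, and only -0.14 and -0.19 for VHL. In Jurkat 2 of the 16 rose and 2 fell, beside 8.31% of all genes higher and 11.6% lower, and the list's median change was 0.04. CITED2, which competes with HIF for its coactivators, rose by 2.91-fold (1.54 ± 0.26 SE, limma adjusted p = 2.1e-05), and ELOB, a partner of VHL in its ubiquitin ligase, rose by 1.26-fold. VHL, the recognition subunit for hydroxylated HIF, fell by 0.84 on the log2 scale (SE 0.13, limma adjusted p = 4.6e-06), and its 2 further probes gave -0.78 and -0.72. CREBBP, a HIF coactivator, fell by 0.72 on its brightest probe, while another probe gave 0.04.

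Of 27 glycolysis genes 25 were measured, with medians of -0.05 in DLD-1 and 0.21 in Jurkat. The single call in DLD-1 was SLC2A1, and with the BeadChip as a block there was none. In Jurkat PFKL, the liver phosphofructokinase, rose by 1.5-fold (0.59 ± 0.19 SE, limma adjusted p = 0.026). These counts, 1 of 25 in each line, stand beside 4.31% and 19.9% of all genes.

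Of 30 other HIF targets, ADM and P4HA1 included, 26 were measured, with medians of 0.14 in both lines. In DLD-1, 4 of the 26 rose and 0 fell, beside 1.85% and 2.46% of all genes. Beside ADM and P4HA1 they were WSB1, a SOCS-box ubiquitin ligase subunit (0.74 ± 0.16 SE, limma adjusted p = 0.0047), and P4HA2, a sister subunit of P4HA1 (0.55 ± 0.14 SE, limma adjusted p = 0.012). Further probes of WSB1 gave 0.61 and -0.41, and those of P4HA2 0.38 and 0.07. ANGPTL4, a secreted lipase inhibitor named here after its values were seen, was not called on its brightest probe (0.16 ± 0.18 SE, limma adjusted p = 0.75), while another probe gave 1.44 ± 0.24 (SE; adjusted p = 0.00023 over all kept probes in limma). In Jurkat 3 of the 26 rose and 3 fell, beside 8.31% and 11.6% of all genes. KDM3A, a histone demethylase, rose by 1.48-fold and PLOD1, a collagen lysyl hydroxylase, by 1.29-fold beside ADM. ERO1A, an oxidase of the endoplasmic reticulum, fell by 0.43, BNIP3L, a mitophagy receptor related to BNIP3, by 0.42 and INSIG2, a regulator of sterol synthesis, by 0.57, all on the log2 scale, with limma adjusted p between 0.0076 and 0.021.

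**Figure D5:**
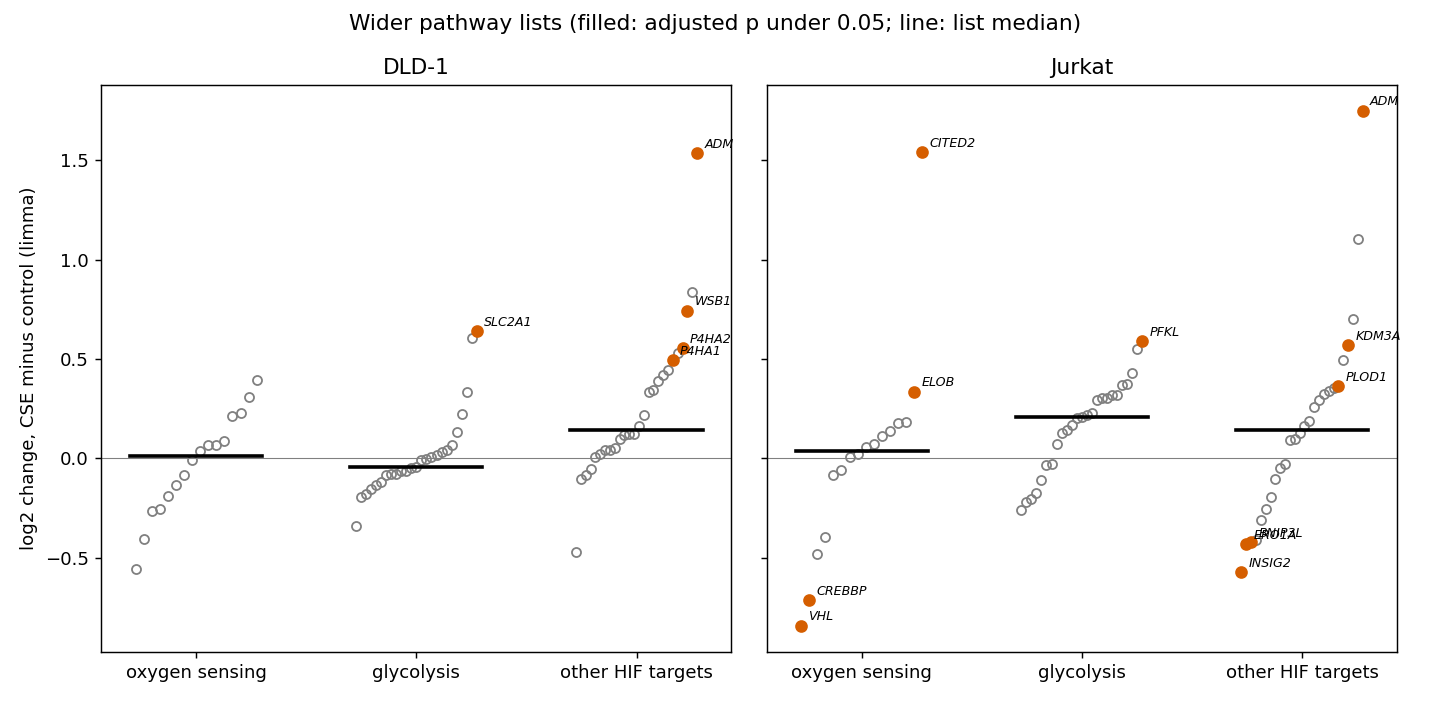
Log2 change from control to CSE (y axis, limma) of each measured gene of 3 pathway lists (x axis), in DLD-1 (left) and Jurkat (right), with filled points for an adjusted p under 0.05 and a line at each list's median. In Jurkat CITED2 (1.54) and ADM (1.75) stand highest and VHL (-0.84) lowest, while most glycolysis genes did not pass in either line.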

How the data were processed

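Total RNA was labelled and hybridized to Illumina bead arrays. Per the file headers, the authors deposited a non-normalized bead intensity with its detection p-value, by probe and array, and a further series table of normalized intensity values, made by a method not given in the sources used here. That table ranked probes within each array as the bead table did and served as an alternative. Samples were grouped by their source label. Background was corrected from the detection p-values and arrays were quantile normalized (neqc, offset 16, log2) in limma 3.58.1 under R 4.3.3. Probes detected at p under 0.05 on at least 6 arrays were kept (22612 probes, 16090 genes), and the brightest kept probe stood for each gene. Symbols were updated through RefSeq for 13224 genes and taken from the file for 2866. A single model of 4 groups gave all contrasts, with Benjamini-Hochberg adjustment over all genes. The scripts were tested on data with known answers. A further gene is not reported here. The members and lists were chosen with earlier results of these data known. Named genes are all members, HSPA6 and HMOX1, the called genes of each wider list (at most 6 per line, or the 2 smallest p-values where none passed) and the 2 genes most like each called member. Relations between arrays used exact permutation for 6 arrays and 100000 permutations for 12. Intensities carry no counts, so the number of arrays limits the precision. Alternatives covered the BeadChip, normalization, background, offset, filter, spread, test, probes and single arrays.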

Additional observations from a re-analysis of the deposited data

Results flagged for a closer look

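In 2 of the 67 measured genes of the wider lists the change with CSE differed between the lines by a test of that difference, which called 6.48% of all genes. For CITED2, the competitor of HIF for its coactivators, the change in DLD-1 minus that in Jurkat was -2.10 ± 0.36 on the log2 scale (SE; limma adjusted p = 0.00034): the DLD-1 means were 11.44 without and 10.88 with CSE, the Jurkat means 6.50 and 8.04. For ERO1A, an oxidase of the endoplasmic reticulum, the difference was 0.56 ± 0.17 (SE; limma adjusted p = 0.038), where the DLD-1 means were 7.62 without and 7.75 with CSE and the Jurkat means 7.51 and 7.08. In 18 tests of the CSE groups for a single array far from the other 5, none of the 9 measured members had such an array.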

How the results depend on the processing

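No paired analysis was possible because the replicate numbers only name arrays in accession order. The cause of each change below was not tested. The count of members called with CSE in DLD-1 (3) was 0, 1 and 0 within BeadChips 1, 2 and 3, where few arrays are left, and 0 to 3 with 1 array left out (0 without CSE replicate 3). With the BeadChip as a block the count was 2. SLC2A1 lost its DLD-1 call in 11 of 17 other settings, among them an exact rank test, looser filters and a spread from DLD-1 alone. All genes called there (693) became 35 and 1 within BeadChips 1 and 3, 244 by an exact rank test, and 295 to 923 with 1 array left out, the lowest without CSE replicate 3 and 367 without CSE replicate 5. In Jurkat the count of members (1) was 0 within BeadChip 1. It was 2 with the BeadChip as a block, the authors' values, median scaling, no background correction, detection under 0.01 on 12 arrays, a spread from Jurkat alone, or without the array of doubtful label. P4HA1, higher, was the added member with the block, median scaling, the 0.01 filter and without the array of doubtful label. BNIP3, lower, was the added member with the authors' values, no background correction and the spread from Jurkat alone. The count was 3 with offset 50, which added both, and 1 to 2 with 1 array left out. By the exact rank test ADM was lost and BNIP3, lower, was gained, so the count stayed the same. All genes called there (3203) became 972, 419 and 483 within BeadChips 1, 2 and 3 and 2450 to 3220 with 1 array left out. The count for the difference of effects (1042) became 5, 169 and 0 within BeadChips 1, 2 and 3 and 621 to 1238 with 1 array left out, with 621 without Jurkat CSE replicate 1, 632 without DLD-1 CSE replicate 3 and 641 without DLD-1 CSE replicate 5. In the oxygen sensing list the DLD-1 count (0) was 1 with the block and 3 in the authors' values, and its count for the difference (1) was 2 in both. The glycolysis list's DLD-1 count (1) was 0 with the block and its Jurkat count (1) was 2 in the authors' values, and the other HIF targets' count for the difference (1) was 2 with the block and in the authors' values. Median scaling moved the median change of all genes in Jurkat from 0.03 to 0.17 and the share of calls that were higher from 41.7% to 60.7%, and in DLD-1 that share moved from 42.9% to 57.3%. Between the lines all 9 members stayed called with any 1 array left out, and members called for the difference stayed at 0. No called value changed sign in any setting. An exact rank test and separate spreads were not run for the difference of effects. VEGFA, the lowest Jurkat control arrays of ADM, and ALDOC and BNIP3 in DLD-1 lie near background, which limits what their differences can show.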
